A study of Mus musculus with 4 samples.

Results

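NP_SUB and CT_SUB (Glutamatergic_NP_SUB and Glutamatergic_CT_SUB in full) are 2 of the 67 cell type labels that the authors assigned, as fractions of each spot, on spatially barcoded brain sections. The names stand for near-projecting and corticothalamic neurons of the subiculum. A spot was counted as holding a label when its deposited fraction was above 0. By this rule 491 of 14809 spots held at least 1 of the labels, 472 of them NP_SUB and 20 CT_SUB. A spot is a small region that can hold several cells, so these are counts of spots and not of cells.

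The sections were sagittal brain sections of wild-type C57 mice. Each of the 4 groups had 1 section: a control given saline, a saline-treated mouse that stayed resilient through chronic social defeat, a susceptible mouse given saline, and a susceptible mouse given ketamine at 10 mg/kg into the peritoneum, with tissue taken 7 days later. Resilient and susceptible mice were told apart by a social interaction test. With 1 section a group there is no replicate and no test: intervals below measure counting error alone and treat spots as independent, which neighbouring spots are not. Mouse, section plane and group cannot be told apart here.

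The subiculum is the main output region of the hippocampus and lies between field CA1 and the retrohippocampal cortex. Near-projecting neurons are deep-layer excitatory neurons whose axons stay largely local, and the same broad class occurs in layer 5 of the neocortex. Corticothalamic neurons send axons to the thalamus, and a subicular form of them lies in the deep subiculum.

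NP_SUB was a moderately common label and CT_SUB a rare label in every section. The control section had 89 NP_SUB spots of 3733 (2.38%, exact 95% interval 1.92 to 2.93). The resilient section had 145 of 4156 (3.49%, 2.95 to 4.09), the susceptible section 125 of 3443 (3.63%, 3.03 to 4.31), and the ketamine-treated section 113 of 3477 (3.25%, 2.69 to 3.89). The control was the lowest. Its interval did not overlap those of the resilient and susceptible sections and overlapped that of the ketamine-treated section, and the 3 sections from defeated mice overlapped with each other. Among the 67 labels, NP_SUB ranked 18th by number of spots in the control, 17th under ketamine and 15th in both other sections. CT_SUB was held by 3 control, 8 resilient, 4 susceptible and 5 ketamine-treated spots. Its intervals, from 0.0166 to 0.235% in the control and from 0.0831 to 0.379% in the resilient section, overlapped between all sections.

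**Figure D1:**
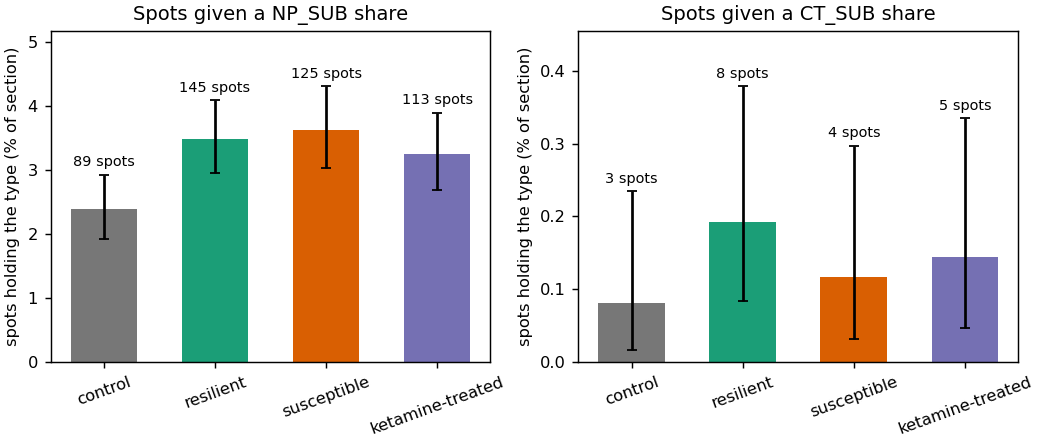
Percent of the spots of each section that held NP_SUB (left) or CT_SUB (right), on separate scales that start at 0, with 1 bar per section and exact 95% counting intervals as error bars. The control bar for NP_SUB, at 2.38%, lies below the 3.25 to 3.63% of the other sections, while the CT_SUB intervals overlap throughout.

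Where NP_SUB was present it usually took a minority of the spot. The smallest NP_SUB share above 0 was 14.7% of a spot in the control and 15.5% in the susceptible section. The median share in holding spots was 29.9% for the control, 31.1% for the resilient, 35.4% for the susceptible and 30.6% for the ketamine-treated mouse. These medians lay well inside the spread of single spots, whose middle range (lower to upper quartile) ran from 25.2 to 45.9% in the susceptible section. That spread does not measure the error of a median. No interval was computed for the medians, so whether they differ was not tested. NP_SUB was the highest share of 20 control, 40 resilient, 43 susceptible and 35 ketamine-treated spots, which is 22.5% (14.3 to 32.6), 27.6% (20.5 to 35.6), 34.4% (26.1 to 43.4) and 31.0% (22.6 to 40.4) of the holding spots. It filled the whole of 4, 8, 7 and 3 spots in the same order. CT_SUB shares ran from 15.2 to 58.7% of a spot, with a median of 29.5% over the 20 spots, and no spot was given to CT_SUB alone.

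The names place both labels in the hippocampal formation, and the deposited clusters were used to check this, since no gene values were analysed here. Cluster 10 was the cluster in which dentate gyrus and CA1 neurons led after astrocytes in all 4 sections. It held 89.9% of the 199 spots with DG (84.9 to 93.8), the granule neurons of the dentate gyrus, and 71.5% of the 239 spots with CA1 pyramidal neurons (65.4 to 77.2). Cluster 10 also held 66.9% of the CA3 spots and 85.4% of the CA2_IG_FC spots. Of the 472 NP_SUB spots, 1 lay in cluster 10, or 0.212% (0.00536 to 1.17), and of the 20 CT_SUB spots none did (upper bound 16.8%). SUB, the label for other subicular neurons, was divided, with 25% of its 72 spots in cluster 10 and 43.1% in cluster 2. Of the further labels named for the subiculum or the prosubiculum, SUB_ProS (31 spots), ProS (16) and CA1_ProS (18) had no spot in cluster 10. L2_IT_ProS, the remaining one, had 1 of its 5 spots there. Ndnf_HPF (400 spots), NP_PPP (102) and L2_3_IT_PPP (23) also had none there, while L5_PPP had 2 of 134 and L2_IT_PAR 2 of 10. A place outside cluster 10 was thus not particular to NP_SUB and CT_SUB. Nearly all NP_SUB and CT_SUB spots thus lay outside the cluster of the hippocampal fields. They are called below by their column names, without a claim that they lie in the subiculum.

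**Figure D2:**
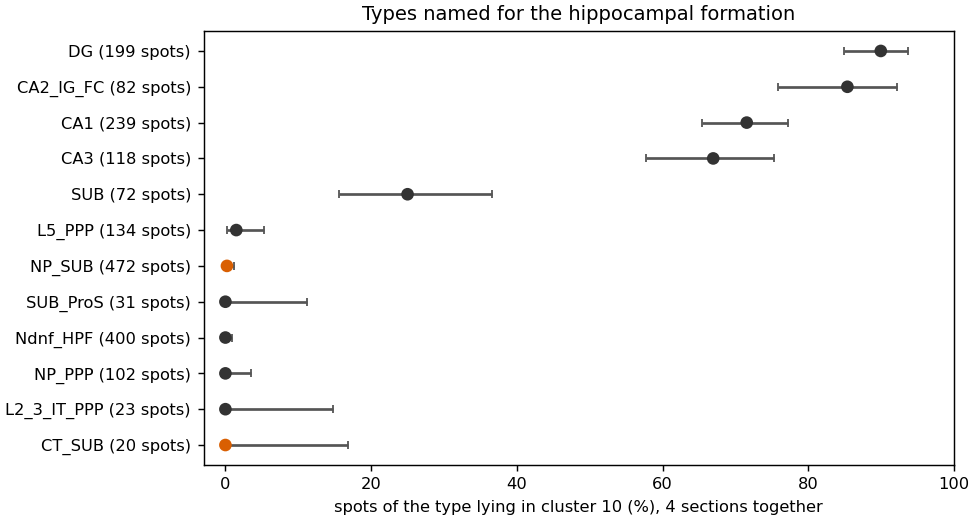
Percent of the spots of each label that lay in cluster 10, over the 4 sections together, for the labels named for the hippocampal formation that were held by at least 20 spots, with exact 95% counting intervals; NP_SUB and CT_SUB are in orange. DG, CA2_IG_FC, CA1 and CA3 lie between 66.9% and 89.9%, NP_SUB at 0.212% and CT_SUB at 0%. Of the remaining labels, SUB lies at 25%, L5_PPP at 1.49%, and Ndnf_HPF, NP_PPP, L2_3_IT_PPP and SUB_ProS at 0%.

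The list fixed for the hippocampal formation held 16 labels, and the 14 besides NP_SUB and CT_SUB rarely shared a spot with them. Of the 472 NP_SUB spots, 26 (5.51%) held any of the 14, and none of the 20 CT_SUB spots did. By section, 5.62% of control (1.85 to 12.6), 6.90% of resilient (3.36 to 12.3), 3.20% of susceptible (0.879 to 7.99) and 6.19% of ketamine-treated NP_SUB spots (2.53 to 12.3) held any of them. The other spots of the sections stood at 9.55%, 11.8%, 8.41% and 6.96%. The NP_SUB value was lower in each section, though the 95% intervals of the ratios all reached 1. The other spots include cluster 10, which held most spots with CA1, CA2_IG_FC, CA3 and DG. No value weighted by cluster was formed for the list. The lower value thus cannot be told apart from the place of NP_SUB outside cluster 10. Of these labels 6 occurred in NP_SUB spots at all, and 1, Ndnf_HPF, a GABAergic interneuron label, in at least 10 (13 spots). Over the 4 sections, Ndnf_HPF was in 2.75% of NP_SUB spots and 2.70% of the other spots. CA1, CA2_IG_FC and DG shared no spot with NP_SUB, and SUB shared 4. SUB was thus in 0.847% of NP_SUB spots and 0.474% of the others. The SUB ratio was 1.71 (0.233 to 12.5) for control, 2.41 (0.573 to 10.1) for resilient and 2.04 (0.269 to 15.5) for susceptible spots. These intervals include 1. No ketamine-treated NP_SUB spot held SUB, against 0.238% of the others.

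NP_SUB lay mainly in clusters 1, 2 and 3. These held 78.7% of its control, 69.7% of its resilient, 84.8% of its susceptible and 68.1% of its ketamine-treated spots, and 52.9%, 48.7%, 47.7% and 39.5% of all spots of those sections. Cluster 1 was led by oligodendrocytes and astrocytes with L2_IT_RSPv and Pvalb behind them, cluster 2 by the deep cortical label L5_PT_RSP_ACA, and cluster 3 by astrocytes. Over the sections together, cluster 1 held 158 NP_SUB spots (33.5%), cluster 2 131 (27.8%) and cluster 3 65 (13.8%). Clusters 11, 4, 9, 15 and 7 followed with 31, 25, 25, 17 and 15. The remaining 5 NP_SUB spots were 2 in cluster 13 and 1 each in clusters 6, 10 and 12. Clusters 5, 8, 14, 16 and 17 held none in their 2152 spots. As a rate, NP_SUB was in 5.41% of cluster 1 spots (4.62 to 6.29), 4.51% of cluster 2 (3.78 to 5.33), 5.45% of cluster 3 (4.23 to 6.89), 5.34% of cluster 11 (3.65 to 7.49) and 7.94% of the small cluster 15 (4.70 to 12.4), whose intervals overlap. It was in 1.56% of cluster 7 (0.877 to 2.56), which oligodendrocytes dominate, and in 0.103% of cluster 6 (0.00260 to 0.571).

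The NP_SUB rate within cluster 3 was higher in the susceptible section than in the others. NP_SUB was in 10 of the 330 spots that the cluster had in the control (3.03%, 1.46 to 5.50) and 13 of 375 in the resilient section (3.47%, 1.86 to 5.86). The susceptible section had 32 of 278 (11.5%, 8.01 to 15.9) and the ketamine-treated section 10 of 210 (4.76%, 2.31 to 8.58). The susceptible interval overlapped only that of the ketamine-treated section, and by a small margin. The susceptible rate was 3.80 times the control rate (95% counting interval 1.90 to 7.59), 3.32 times the resilient rate (1.78 to 6.21) and 2.42 times the ketamine-treated rate (1.22 to 4.81). Cluster 3 differed in makeup between sections in general. The labels compared there, NP_SUB included, numbered 11 against the control and 10 against each of the resilient and ketamine-treated sections. In that order, 63.6%, 60% and 50% of them differed by at least 1.5-fold. Oligodendrocytes, for instance, were in 33.8% of susceptible and 62.1% of control spots of the cluster, and astrocytes in 60.4% and 82.1%. Their part in the NP_SUB difference was not tested. The 1.5-fold mark lies below the NP_SUB ratios. Among these labels the NP_SUB ratio was the furthest from 1 against the control and resilient sections. Against the ketamine-treated section the ratio of endothelial cells (Endo) was further from 1, at 0.278. Of the 32 susceptible NP_SUB spots in cluster 3, 20 also held astrocytes, 10 oligodendrocytes, 5 L5_PT_RSP_ACA and 5 L4_5_IT_TPE_ENT.

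In clusters 1 and 2 the sections lay closer, with the control below the others. NP_SUB was in 3.77% of control cluster 1 spots (2.64 to 5.20), 5.76% of resilient (4.32 to 7.51), 6.45% of susceptible (4.62 to 8.71) and 6.59% of ketamine-treated ones (4.58 to 9.13). All 4 intervals overlapped, while the ratios to the control, 1.53 (1.005 to 2.33) for resilient, 1.71 (1.10 to 2.67) for susceptible and 1.75 (1.10 to 2.78) for ketamine-treated spots, had intervals above 1; the resilient one barely so. In cluster 2 the rates were 3.49%, 4.83%, 4.60% and 5.13% in the same order, and the ratios to the control, 1.38 (0.842 to 2.27), 1.32 (0.797 to 2.18) and 1.47 (0.886 to 2.43), had intervals that include 1. The control was lowest in each of clusters 1, 2 and 3. All these ratios share the same control section. How many labels differed by as much within clusters 1 and 2 was not counted, so whether such ratios are common there is not known. In the small cluster 15, NP_SUB was in 2 of 76 control, 7 of 79 resilient, 3 of 29 susceptible and 5 of 30 ketamine-treated spots, with intervals that overlapped.

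**Figure D3:**
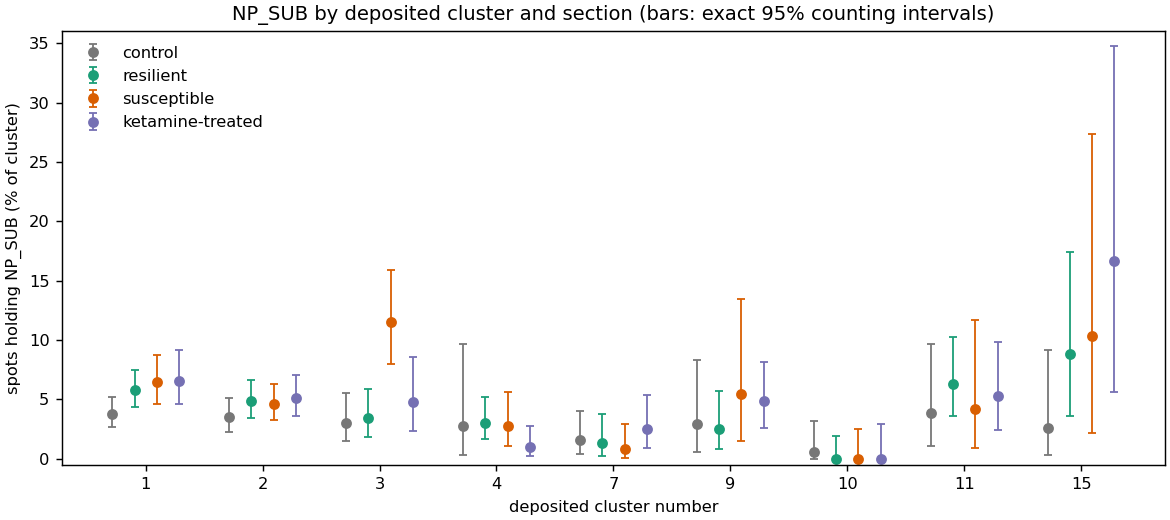
Percent of the spots of a deposited cluster that held NP_SUB, by section, for cluster 10 and the 8 clusters with at least 15 NP_SUB spots over the 4 sections; points are sections and bars exact 95% counting intervals. The susceptible section stands at 11.5% in cluster 3 against 3.03 to 4.76% in the other sections, and cluster 10 lies at or near 0 throughout.

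The comparison of susceptible with control addresses the state after defeat with social avoidance. The share of spots with NP_SUB was 1.52 times the control share (1.16 to 1.99). Among the 45 labels that could be compared, 37.8% differed by at least 1.5-fold, so a difference of this size was common. Leaving cluster 3 out, the ratio was 1.27 (0.941 to 1.70), an interval that includes 1. By spots led the ratio was 2.33.

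The resilient section, from a defeated mouse without avoidance, had 1.46 times the control share of NP_SUB spots (1.13 to 1.90), below the 1.5-fold mark that 43.1% of labels passed. The susceptible share was 1.04 times the resilient share (0.823 to 1.32), where 43.8% of labels passed. Without cluster 3 that ratio was 0.842 (0.648 to 1.09).

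The ketamine-treated section had 0.895 times the susceptible share of NP_SUB spots (0.697 to 1.15), where 20.5% of labels passed 1.5-fold, and 1.36 times the control share (1.04 to 1.79), where 26.7% did. Within cluster 3 the ketamine-treated rate was 0.414 times the susceptible rate (0.208 to 0.822). In the other clusters together the ratio was 1.07 (0.814 to 1.41). For CT_SUB the ratios to the control were 1.45 (0.324 to 6.45) for the susceptible, 2.40 (0.636 to 9.02) for the resilient and 1.79 (0.428 to 7.48) for the ketamine-treated section. With 3 to 8 spots a section, a difference in CT_SUB was not detectable with this number of spots.

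Astrocytes were the type most often found in NP_SUB spots in every section, followed by oligodendrocytes except in the ketamine-treated section, where L5_PT_RSP_ACA came before them. A control NP_SUB spot held on average 1.92 ± 0.932 other types (SD over 89 spots), a resilient spot 2.08 ± 1.07, a susceptible spot 1.86 ± 0.936 and a ketamine-treated spot 2.15 ± 0.966. The remaining typed spots held 2.29, 2.34, 2.12 and 2.18 types in all. Astrocytes were in 49.4% of control NP_SUB spots and 47.4% of the other control spots, and their ratio to the other spots lay between 0.913 and 1.08 over the sections. Oligodendrocytes were in 40.4%, 33.8%, 36.8% and 31.0% of NP_SUB spots, in the order control, resilient, susceptible and ketamine-treated, against 42.3%, 31.1%, 25.3% and 23.9% of the other spots. The oligodendrocyte ratio was above 1 beyond counting error in the susceptible section alone, at 1.46 (1.15 to 1.85), and when the other spots were weighted to the clusters of the NP_SUB spots the ratios became 0.818, 0.845, 1.12 and 0.955.

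Among the 23 labels held by at least 1% of the other spots of every section, L5_PT_RSP_ACA and Pvalb were found more often in NP_SUB spots than elsewhere in all 4 sections. They were 2 of the 23 (8.7%), while 7 of 23 (30.4%) were less frequent in all 4. L5_PT_RSP_ACA, named for the layer 5 pyramidal-tract neurons of retrosplenial and anterior cingulate cortex, which project out of the telencephalon, was in 23.6% of control NP_SUB spots (15.2 to 33.8), 28.3% of resilient (21.1 to 36.4), 22.4% of susceptible (15.4 to 30.7) and 33.6% of ketamine-treated ones (25.01 to 43.1). The other spots stood at 12.9%, 21.4%, 15.6% and 16.8%. In section order the ratios were 1.83 (1.25 to 2.68), 1.32 (1.01 to 1.72), 1.43 (1.02 to 2.00) and 2.00 (1.53 to 2.62). Pvalb, the fast-spiking parvalbumin interneuron, was in 14.6%, 15.9%, 17.6% and 15.9% of NP_SUB spots and in 10.8%, 10.1%, 7.69% and 6.36% of the others. Its ratio was 1.35 (0.810 to 2.25) for control, 1.56 (1.06 to 2.30) for resilient, 2.29 (1.54 to 3.41) for susceptible and 2.50 (1.61 to 3.90) for ketamine-treated spots.

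Part of these partnerships followed the clusters in which NP_SUB lay. Against other spots weighted to the same clusters, the Pvalb ratios became 1.01, 0.993, 1.52 and 1.48, and those of L5_PT_RSP_ACA 1.36, 1.03, 1.12 and 1.39. Within cluster 2, L5_PT_RSP_ACA was in 76 of 131 NP_SUB spots (58.0%, 49.1 to 66.6) and 48.8% of the rest. By section it was 52% (31.3 to 72.2) and 41.4% for the control and 48.6% (31.9 to 65.6) and 55.6% for the resilient mouse. It was 57.1% (39.4 to 73.7) and 47.9% for the susceptible and 73.5% (55.6 to 87.1) and 49.9% for the ketamine-treated mouse. The gap was widest under ketamine, the only section whose interval left out the value of the rest. The lower resilient value was within counting error. Within cluster 1, L5_PT_RSP_ACA was in 15.2% of NP_SUB spots and 14.8% of the rest, which differed by less than counting error. L2_IT_RSPv, a layer 2 label of ventral retrosplenial cortex, was in 26.6% of the 158 NP_SUB spots of cluster 1 (19.9 to 34.2) and 35.4% of the rest.

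The 7 labels that were less frequent in NP_SUB spots in all 4 sections were mainly labels of excitatory neurons: CA1, L2_3_IT_CTX, L2_3_IT_ENTl, L4_5_IT_TPE_ENT, L5_IT_CTX and L6_CT_CTX, with microglia (Micro) as the seventh. Those among them outside the 10 most frequent partners are named because of their values. CA1, L2_3_IT_CTX and L2_3_IT_ENTl were in no NP_SUB spot of any section. These 3 were also rare in the clusters where NP_SUB lay: weighted to those clusters, the other spots held CA1 at 0.0677 to 0.352%, L2_3_IT_CTX at 0.447 to 0.764% and L2_3_IT_ENTl at 0.122 to 0.385%. L5_IT_CTX, the intratelencephalic neurons of layer 5, was in 3 control, 3 resilient, 0 susceptible and 0 ketamine-treated NP_SUB spots, against 10.3%, 9.35%, 7.87% and 9.10% of the other spots. Weighted to the clusters of the NP_SUB spots, L5_IT_CTX stood at 12.9%, 9.85%, 8.67% and 11.8% of the other spots, so the gap was also present within clusters. L4_5_IT_TPE_ENT was in 2.25%, 8.28%, 4.0% and 6.19% of NP_SUB spots against 11.9%, 16.3%, 11% and 11.5% elsewhere. Within cluster 2 it was in 5 of 131 NP_SUB spots (3.82%, 1.25 to 8.68) and 23.0% of the rest. L6_CT_CTX, the corticothalamic neurons of layer 6, was in 13 of the 472 NP_SUB spots (2.75%, 1.47 to 4.66) and 6.19% of the others. Its ratio intervals reached 1 in every section taken by itself. Against other spots weighted to the same clusters, its ratios were 0.379, 0.452, 0.243 and 0.177 in section order, for which no intervals were computed.

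L6b_CTX and L2_IT_RSP_ACA were spread unevenly over the sections. L6b_CTX, the deepest cortical neurons, lying against the white matter, was in 15 of 145 resilient NP_SUB spots (10.3%, 5.91 to 16.5) against 2.69% of the other resilient spots, a ratio of 3.84 (2.30 to 6.42). In the other sections it was in 3 control, 1 susceptible and 2 ketamine-treated NP_SUB spots, with ratio intervals that include 1. The resilient interval did not overlap the susceptible one (0.0203 to 4.38) and overlapped those of the other sections. Of the 15 resilient spots, 13 lay in cluster 2, where 35.1% of the 37 NP_SUB spots (20.2 to 52.5) and 10.7% of the rest held L6b_CTX. L2_IT_RSP_ACA was in 21 of 113 ketamine-treated NP_SUB spots (18.6%, 11.9 to 27.0), against 3.37% for the control, 4.14% for the resilient and 6.40% for the susceptible mouse. The other spots stood at 13.1% under ketamine, 10.9% in the control, 5.86% in the resilient and 9.22% in the susceptible section. The control ratio of 0.310 (0.102 to 0.947) lay below 1, and the intervals of the others, with 1.42 (0.957 to 2.11) under ketamine, include 1. Within cluster 2 it was in 15 of 34 ketamine-treated NP_SUB spots (44.1%, 27.2 to 62.1) and 24.5% of the rest. Sst_Chodl, a long-range somatostatin neuron, CR, named for Cajal-Retzius cells, and L2_IT_RSPv had ratios whose intervals included 1 in each section where they could be formed; no control NP_SUB spot held Sst_Chodl.

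**Figure D4:**
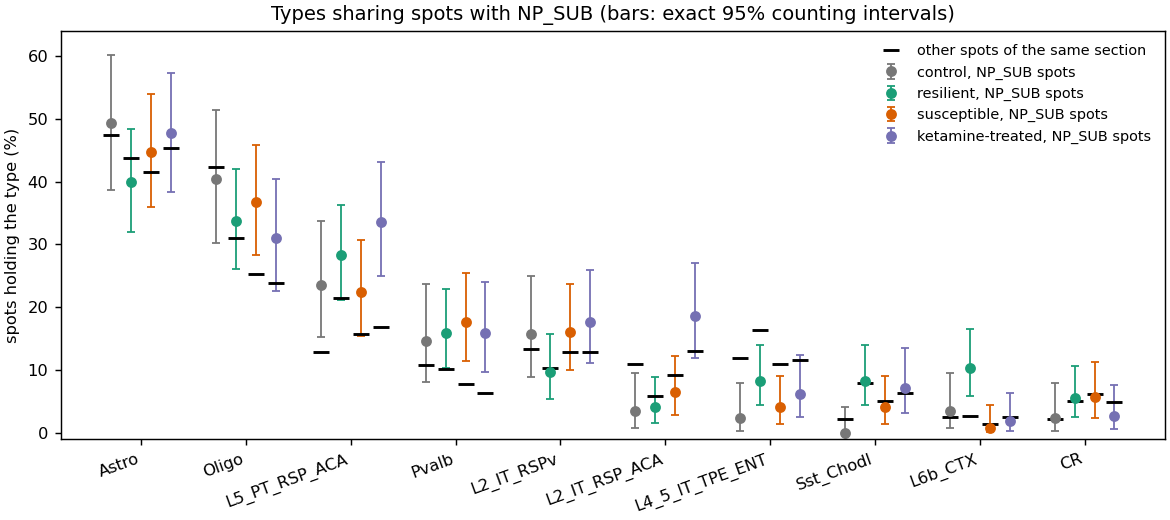
Percent of NP_SUB spots that also held each of the 10 most frequent partner labels (coloured points, with exact 95% counting intervals) and the same percent in the other spots of the same section (black dashes), by section. L5_PT_RSP_ACA and Pvalb lie above their dashes in all 4 sections, L4_5_IT_TPE_ENT lies below, and L6b_CTX stands out at 10.3% in the resilient section.

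The list of near-projecting labels held 3 besides NP_SUB: L5_NP_CTX, L6_NP_CT_CTX and NP_PPP. All 3 occurred in NP_SUB spots, together in 13 of the 472 (2.75%), and none reached 10 spots. In section order, any of the 3 was in 2.25%, 2.76%, 3.20% and 2.65% of NP_SUB spots. The other spots stood lower, at 0.960%, 0.997%, 0.753% and 1.13%. The ratios were 2.34, 2.77, 4.25 and 2.35, and rest on 2, 4, 4 and 3 NP_SUB spots. Their intervals lay above 1 for the resilient (barely so) and susceptible mice, and included 1 for the control and ketamine-treated mice. L5_NP_CTX, the near-projecting neurons of cortical layer 5, is described here because of its values. It was in 24 spots of the 4 sections, of which 8 held NP_SUB (33.3%, 15.6 to 55.3), while NP_SUB was in 3.19% of all spots. By section the shared spots were 1 of 5 for the control, 3 of 12 for the resilient, 2 of 2 for the susceptible and 2 of 5 for the ketamine-treated mouse, and 6 of the 8 lay in cluster 2. NP_SUB was in 3 of 27 L6_NP_CT_CTX spots (11.1%, 2.35 to 29.2) and 3 of 102 NP_PPP spots (2.94%, 0.611 to 8.36).

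NP_SUB spots held many different sets of types. There were 186 sets over the 472 spots, 126 of them seen once. GABAergic types of any kind were in 19.1% of control NP_SUB spots (11.5 to 28.8) and 20.9% of the other control spots. They were in 29.7% (22.4 to 37.8) and 24.96% of the resilient ones, 28% (20.3 to 36.7) and 22.7% of the susceptible ones, and 31.0% (22.6 to 40.4) and 19.9% of the ketamine-treated ones. The most frequent set was NP_SUB with astrocytes alone (45 spots), then with astrocytes and oligodendrocytes (33), NP_SUB by itself (22), and NP_SUB with oligodendrocytes (18) or with L5_PT_RSP_ACA (14).

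The deposited t-SNE map, a layout in which spots of similar profile lie close and whose axes have no unit, gave a further view. The map covers the same spots as the fractions and may not be independent of them. Neighbours that share a label are thus no separate support for it. Of the 15 nearest spots to an NP_SUB spot, 5.92% held NP_SUB for the control, 8.69% for the resilient, 10.9% for the susceptible and 12.4% for the ketamine-treated mouse, against 3.19% of all spots. Spots of the same clusters without NP_SUB had 3.25%, 4.65%, 5.89% and 5.11% of NP_SUB spots among their neighbours. The clusters with most NP_SUB spots, 1, 2 and 3, were looked at one by one, and the gap was widest in cluster 2. There, NP_SUB was held by 12.5% of the neighbours of control NP_SUB spots, 16.4% of those of resilient, 20.6% of those of susceptible and 25.1% of those of ketamine-treated ones, against 2.48%, 3.58%, 5.25% and 3.99% for the other spots of the cluster. An NP_SUB spot of cluster 2 had up to 8 others among its 15 neighbours. In cluster 1 the NP_SUB spots had 3.81%, 6.93%, 8.03% and 5.66%, in the same order, and the other spots 4.15%, 5.55%, 5.95% and 5.71%. In cluster 3 the susceptible values were 7.50% and 7.32%, and in the other sections the NP_SUB spots had the lower value. NP_SUB spots thus had more NP_SUB neighbours than the rest of their cluster in all 4 sections in cluster 2, in the resilient and susceptible sections in cluster 1, and by a small margin in the susceptible section in cluster 3. The split by cluster was made after the map was seen, and the other clusters were not run.

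**Figure D5:**
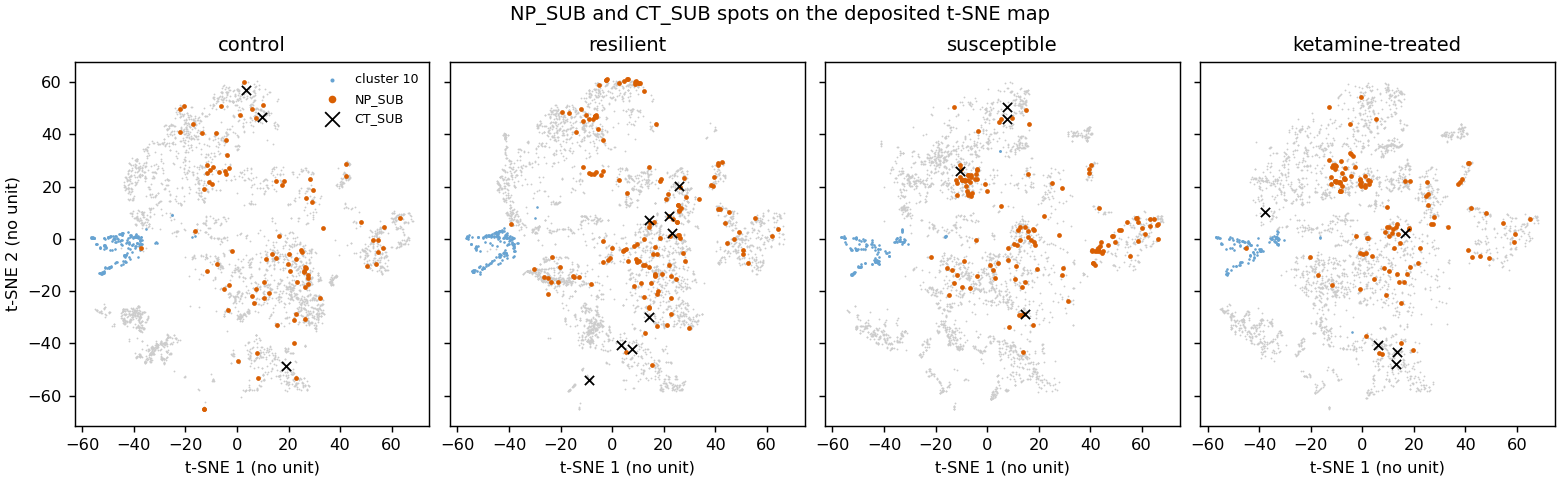
The deposited t-SNE map, with unitless axes, for the spots of each section (grey), with the spots of cluster 10 in blue, NP_SUB spots in orange and CT_SUB spots as black crosses. A dense group of NP_SUB spots in the upper middle of the map is visible in the susceptible and ketamine-treated sections, and cluster 10 is almost free of both labels.

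CT_SUB was too sparse for a comparison between sections, and its 20 spots are described together. They lay in cluster 7 (6 spots), clusters 1 and 2 (5 each), cluster 11 (2) and clusters 6 and 8 (1 each). By section, cluster 7 held 1 of 3 control, 2 of 8 resilient, 0 of 4 susceptible and 3 of 5 ketamine-treated CT_SUB spots. Glia accompanied nearly all of them: 19 of the 20 held oligodendrocytes or astrocytes, 13 held oligodendrocytes (65.0%, 40.8 to 84.6) and 11 astrocytes (55.0%, 31.5 to 76.9). Of all other spots, 31.0% held oligodendrocytes and 44.6% astrocytes. The share of other spots with either of these was not counted. The wider class of 9 non-neuronal labels was common in general. By section, 59.8 to 70.7% of the spots without NP_SUB held at least 1 of the 9. The oligodendrocyte ratio of 2.10 (1.52 to 2.90) became 1.21 against other spots weighted to the same sections and clusters. In 5 CT_SUB spots oligodendrocytes took over 50% of the spot.

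The control CT_SUB shares were 24.9%, 25.6% and 33.3% of a spot. The first and the third lay in cluster 2 and also held L6_CT_CTX, at 25.2% and 27.5%, and the middle one lay in cluster 7 beside 74.4% oligodendrocytes. In the susceptible section the shares were 16.7%, 20.8%, 37.3% and 58.7%, and the spot at 37.3% held L6_CT_CTX at 43.7%. In the ketamine-treated section they were 15.3%, 31.3%, 35.1%, 40.4% and 54.8%. The resilient shares ran from 15.2 to 54.3%, with a median of 27.2% over 8 spots. The list of corticothalamic labels held 4 besides CT_SUB, and 3 CT_SUB spots held any of them, each time L6_CT_CTX. L3_IT_ENTl, layer 3 neurons of the lateral entorhinal cortex, was in 2 CT_SUB spots, from different sections, and in 13 of all other 14789 spots.

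The labels shared 1 spot in all, a resilient spot of cluster 11 with 15.2% CT_SUB. This was 0.690% of resilient NP_SUB spots and 12.5% of resilient CT_SUB spots. Clusters 1, 2 and 3 held 75% of NP_SUB spots, 10 of 20 CT_SUB spots and 47.4% of all spots. Cluster 3 had 13.8% of NP_SUB spots and none of the 20 CT_SUB spots, whose upper bound of 16.8% includes that share.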

How the data were processed

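Spatial transcriptomics was run on 4 frozen sagittal brain sections, 1 per group, on spatially barcoded slides, per the labels' protocols. The submitters' processing notes name the build mm10. For the aligner, the clustering, and the method and reference behind the cell types, names and settings were not given in the sources used here. Per spot, the authors deposited a cluster number and the fraction given to each type, and the fractions of every spot sum to 1. No fraction above 0 was under 10.1% of a spot, so small shares may be set to 0. Neither gene counts nor positions of spots were analysed here. Depth is thus unknown.

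Shares of spots have exact Clopper-Pearson 95% intervals. Ratios of shares have log-normal 95% counting intervals. Labels compared between sections had at least 20 spots in the pair and 1 in each section, and partner labels at least 1% of the other spots of every section. Named partners were the 10 with the highest mean frequency over the sections; labels of 3 lists (hippocampal formation, near-projecting, corticothalamic, chosen by name) and clusters were also named. Each of the 4 barcode sets of the t-SNE table held exactly the barcodes of 1 section, which joined the tables. The members, lists and comparisons were chosen with earlier results of these data known. Calculations used Python 3.11.15, pandas 2.3.3 and SciPy 1.17.1, and the functions were tested on simulated data. Alternatives were other measures, a 20% minimum share, unknown spots left out, cluster weights made the same in every section, cluster-matched spots and other neighbour settings.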

Additional observations from a re-analysis of the deposited data

How the results depend on the processing

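The ratios of NP_SUB and CT_SUB spots between sections stayed within their counting intervals with mean shares, a 20% minimum share and unknown spots left out. They also stayed within those intervals when 13 clusters had the same weights in every section, each weight being the cluster's mean proportion of spots over the sections. By spots led, the NP_SUB ratio to the control was 2.33 for the susceptible and 1.88 for the ketamine-treated mouse, outside those intervals; the cause was not tested. Leaving out cluster 3, chosen after seeing its high susceptible rate, brought the susceptible to control interval to include 1, as given above. The intervals of the resilient and ketamine-treated ratios to the control stayed above 1 without it. Weighted to the clusters of the NP_SUB spots, the Pvalb ratio turned to 0.993 in the resilient section and moved to 1.52 for susceptible and 1.48 for ketamine-treated spots, and that of L5_PT_RSP_ACA moved to 1.39 in the ketamine-treated section. This weighting compares spots of the same clusters. The 1 spot with both labels became 0 at a 20% minimum share. The ratio of CT_SUB among t-SNE neighbours of CT_SUB spots to all spots, 4.94 over 2 such spots, became 0 within sections. Counting partners as a share of all type entries, chosen after seeing the data, moved none of the NP_SUB ratios of L5_PT_RSP_ACA and Pvalb outside their intervals. Of 219 recomputed values, 206 stayed within the interval of the reported value. This count is a weak check, because several intervals are wide, such as 0.636 to 9.02 for the resilient to control ratio of CT_SUB. It also counts the susceptible to control ratio without cluster 3, 1.27, as unchanged. For the t-SNE ratios, the intervals treat all neighbours as independent. No paired analysis was possible because each group had 1 section. CT_SUB values rest on 3 to 8 spots a section.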

Other observations

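Spots of different sections can carry the same barcode, since slides of this kind reuse them, and the sections shared between 2735 and 3304 barcodes in pairs. The susceptible and ketamine-treated sections shared 3304, or 95.96% of the susceptible spots. Of these barcodes, 124 held NP_SUB in the susceptible section, 112 in the ketamine-treated section and 15 in both, which is 12.1% of the former and 13.4% of the latter, where NP_SUB was on 3.39% of the shared ketamine-treated barcodes. The resilient section had 7 NP_SUB barcodes in common with the susceptible section (6.54% of 107, where NP_SUB was on 3.51% of the shared susceptible barcodes) and 6 with the ketamine-treated section (5.61% of 107, against 3.30%). The control section had 5 of 74 in common with the resilient section (6.76%, against 4.001%), 1 of 54 with the ketamine-treated section (1.85%, against 3.77%) and 0 of 55 with the susceptible section (against 4.06%). These counts are given as values, with no test.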
